A study of Mus musculus with 17 samples.

Results

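MHC class I antigen presentation was followed through 10 genes in cultured mouse pancreatic stellate cells. The genes were chosen by name: the class I heavy chains H2-K1 and H2-D1, their light chain B2m, the peptide transporter Tap1 and Tap2 with its bridge Tapbp, the immunoproteasome subunits Psmb8, Psmb9 and Psmb10, and the transactivator Nlrc5. All 10 were found among the 35896 gene IDs of the count files, and all 10 were among the 13923 genes that passed the filter on low counts. RNA was sequenced in 17 libraries of wild-type C57BL/6J cells of 2 lines, PSC4 (passages 23 to 25) and PSC5 (passages 27 and 28), which were kept in Matrigel, a basement membrane gel, for the 4 days of treatment. Control medium was given to 5 cultures, and TGF-beta at 20 ng/mL to 4 cultures. Another 4 cultures received medium conditioned by pancreatic tumour organoids (CM below), and 4 received CM together with neratinib at 300 nM. Neratinib is an irreversible inhibitor of the ERBB receptor kinases. The design asks what the TGF-beta and the organoid media do to stellate cells, and how ERBB inhibition changes the response to the organoid medium. Each line and replicate number goes with 1 passage, so the libraries of a group are passages of 2 lines and not separate animals. P-values therefore measure the spread between these cultures. Whether the other media carried the solvent of neratinib was not given in the sources used here.

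Class I molecules display peptides from inside the cell to CD8 T cells. Proteasomes cut proteins into peptides, TAP1 and TAP2 pump the peptides into the endoplasmic reticulum, and tapasin (Tapbp) holds the transporter beside empty heavy chains that are paired with beta-2-microglobulin (B2m) until a peptide fits. Interferons raise nearly every step of the pathway: IRF1 acts on the promoters, NLRC5 is recruited to a conserved module of class I promoters, and PSMB8, PSMB9 and PSMB10 replace the constitutive catalytic subunits PSMB5, PSMB6 and PSMB7 in the proteasome. In pancreatic tumours, fibroblasts derived in part from stellate cells surround the epithelium and can present peptides on class I molecules themselves.

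On GRCm38, 7 of the 10 genes lie on chromosome 17 in the major histocompatibility complex. Tapbp is at 33915899 to 33929292 and H2-K1 at 33996017 to 34000347. Psmb9 (34181987 to 34187764), Tap1 (34187553 to 34197225), Psmb8 (34197721 to 34201454) and Tap2 (34203527 to 34216321) follow each other within the class II region, and H2-D1 is at 35262730 to 35267499. B2m lies on chromosome 2 at 122147686 to 122153083. Nlrc5 (94434356 to 94527272) and Psmb10 (105935735 to 105938444) lie on chromosome 8. The RefSeq table on GRCm38.p6 had a promoter window for 8 of the 10 genes. The 250 bases before the RefSeq start are printed for H2-K1, H2-D1 and B2m because the light chain and the heavy chains, on different chromosomes, carry the same spaced module. For some genes that start differs from the positions above, which come from another annotation. The windows of H2-D1 and Psmb8, for example, lie inside the spans given. Capitals mark motif matches on either strand.
H2-K1, chr17:34000348-34000597, minus strand: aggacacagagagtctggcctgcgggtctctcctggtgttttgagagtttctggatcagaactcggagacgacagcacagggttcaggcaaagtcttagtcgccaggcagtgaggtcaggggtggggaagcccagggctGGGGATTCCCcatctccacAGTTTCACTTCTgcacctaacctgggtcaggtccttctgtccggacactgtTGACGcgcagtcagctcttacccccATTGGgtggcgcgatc
H2-D1, chr17:35262844-35263093, plus strand: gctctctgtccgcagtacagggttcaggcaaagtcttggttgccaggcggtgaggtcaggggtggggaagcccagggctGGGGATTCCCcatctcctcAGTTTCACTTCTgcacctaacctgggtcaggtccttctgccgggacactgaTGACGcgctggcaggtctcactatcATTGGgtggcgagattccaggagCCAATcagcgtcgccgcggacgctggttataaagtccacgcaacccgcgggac
B2m, chr2:122147437-122147686, plus strand: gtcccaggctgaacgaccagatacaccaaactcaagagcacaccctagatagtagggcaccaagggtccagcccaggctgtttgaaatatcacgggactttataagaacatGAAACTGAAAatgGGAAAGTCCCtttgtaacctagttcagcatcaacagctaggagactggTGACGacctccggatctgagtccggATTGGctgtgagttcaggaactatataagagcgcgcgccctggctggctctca

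All 3 windows held TGACG (X2 box) followed 20 bases later by ATTGG (Y box), the anchor of the class I enhanceosome. That spaced pair was found in 0.0922% of 32536 promoter windows of the same length. H2-K1 and H2-D1 also shared GGGGATTCCC, a kappa B site (0.0861% of windows), and AGTTTCACTTCT, an interferon-response element (0.0277%). These 3 longer motifs were chosen after the sequences were seen, and both strands were searched. B2m instead held GAAANNGAAA, an ISRE core (2.98% of windows), and GGGNNTTTCC, a kappa B core (1.4%). Psmb8 held TTCNNNGAA, a GAS core (7.04%). The windows of Tap1 and Psmb9 overlap on opposite strands between these divergent genes, and they share 1 X2 box and 1 Y box. The X2 box alone occurred in 17.9% of windows and the Y box alone in 33.8%. A match describes the letters in the window and not a bound site.

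Library totals lay between 22168953 and 29421447 counts, and 3 counts in 1 library corresponded to 0.101 to 0.137 CPM (the depth-scaled count of a gene, with TMM factors). The lowest count of any of the 10 genes was 29, for Psmb9 in CM with neratinib, PSC4 replicate 1, where counting error is not small. The first replicate of line PSC4, with 1 library each in control medium, CM and CM plus neratinib, stood apart from its label. On the third principal component of all tested genes these 3 libraries lay at 1.8 to 37, within or close to the PSC5 range of -3.6 to 36.2, while the other PSC4 libraries lay at -56.8 to -19.7. Results are given with them, and without them where they change a call or a count. Among the 12 markers of stellate cells and fibroblasts, all were detected, and their summed level was 4174 to 20553 CPM over the 17 libraries. Fewer cells of a type and less RNA per cell cannot be told apart in these bulk libraries.

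Neratinib in CM lowered class I transcripts. Against CM alone, 9 of the 10 genes were lower at an adjusted p under 0.05 (edgeR's quasi-likelihood test with Benjamini-Hochberg adjustment over all tested genes) and all 10 fold changes were below 0. Among all tested genes 9.63% were called lower. The median log2 fold change of the 10 genes was -0.87, against 0.001 over all tested genes. Library values did not overlap between the 2 groups for 8 of the 10 genes, H2-D1 and B2m being the exceptions, and 9.14% of all tested genes were lower with no overlap. The levels by gene and library show CM with the highest group mean for all 10 genes. The lowest mean was that of neratinib for Tap1, Tapbp, Psmb8, Psmb9 and Psmb10, and that of TGF-beta for the other 5.

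**Figure D1:**
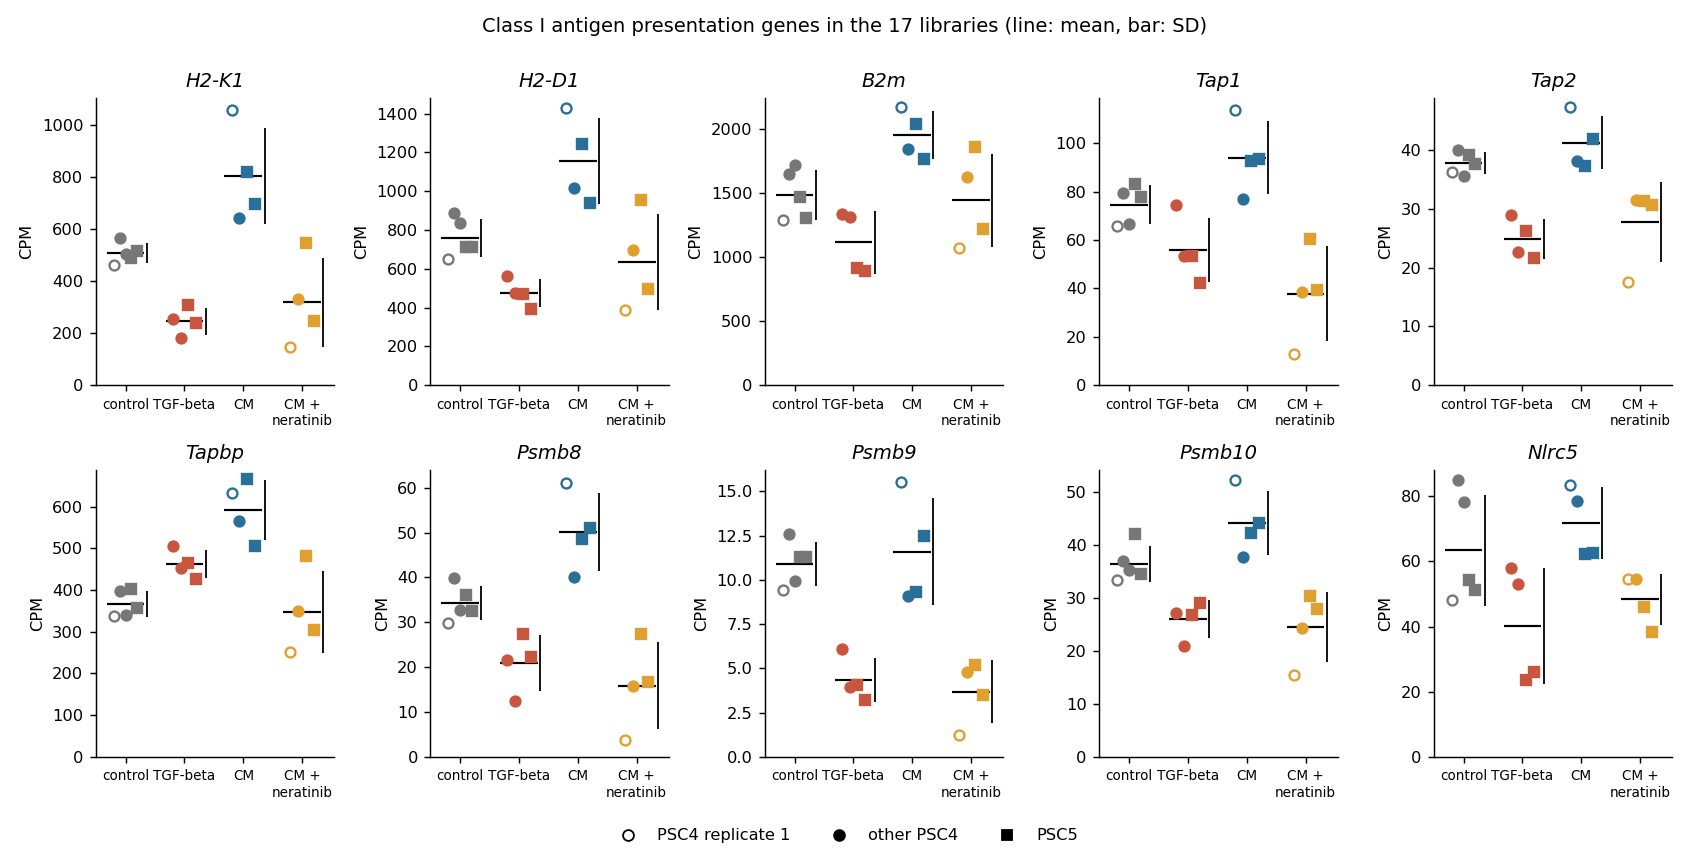
Each panel plots 1 gene, with CPM on a linear axis and the 4 groups on the other; every symbol is 1 of 17 libraries, the line is the group mean and the bar the SD. CM libraries sit above CM with neratinib without overlap for 8 of the 10 genes, and the open circle of CM with neratinib, PSC4 replicate 1, is the lowest of its group for every gene except Nlrc5.

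The heavy chains are the peptide-binding subunits that CD8 T cells read. H2-K1 measured 1059, 644, 823 and 698 CPM in the 4 CM libraries, listed as PSC4 replicates 1 and 2 and then PSC5 replicates 1 and 2. With neratinib, in the same order, it measured 146, 334, 548 and 248 CPM. Every neratinib library was below every CM library. H2-K1 was 2.58-fold lower with neratinib (log2 fold change -1.37, SE 0.29, edgeR adjusted p = 0.00502). H2-D1 measured 1427, 1018, 1241 and 940 CPM in CM and 389, 696, 952 and 495 CPM with neratinib. The groups overlapped by 1 library, PSC5 replicate 1 with neratinib, which was just above PSC5 replicate 2 in CM. H2-D1 was 1.82-fold lower (log2 fold change -0.86, SE 0.23, edgeR adjusted p = 0.016). This call depended on single libraries: the edgeR adjusted p was 0.0549 with CM PSC4 replicate 1 left out and 0.0545 with neratinib PSC5 replicate 2 left out. It was 0.0719 by edgeR when all 3 libraries that stood apart were removed.

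Heavy chain genes share sequence. Of the 31-base stretches of a representative annotated transcript, 23.3% for H2-K1 and 27.7% for H2-D1 also occurred in other genes, led by each other, so how the estimates split between them is uncertain. With the counts of 17 class I heavy chain genes summed to 1 feature, neratinib lowered the sum from 2746 to 1279 CPM on average (log2 fold change -1.11, SE 0.25, edgeR adjusted p = 0.00641).

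B2m, the light chain shared by all class I molecules, was the 1 gene of the 10 that missed the threshold. It measured 2174, 1842, 2037 and 1765 CPM in CM and 1067, 1628, 1859 and 1220 CPM with neratinib. Each neratinib library was below its partner, but the groups overlapped. The log2 fold change was -0.43 (SE 0.17, 95% interval -0.80 to -0.06, edgeR adjusted p = 0.0909). With line and replicate number as a block the value was -0.47 and B2m was called (edgeR adjusted p = 0.0257). It was also called with neratinib PSC5 replicate 1 left out (-0.62, edgeR adjusted p = 0.00993). B2m shared none of its 31-base stretches with other transcripts, although Patl2 spans it on the opposite strand.

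The transporter genes fell together with their bridge. Tap1 measured 114, 76.9, 92.7 and 93.4 CPM in CM and 12.7, 38.5, 60.5 and 39.5 CPM with neratinib, with no overlap. It was 2.54-fold lower (log2 fold change -1.34, SE 0.31, edgeR adjusted p = 0.00831). Tap2, the other chain of the transporter, measured 47.4, 38.2, 37.4 and 41.9 CPM in CM and 17.5, 31.5, 31.3 and 30.7 CPM with neratinib. It changed less than Tap1, at 1.49-fold lower (log2 fold change -0.57, SE 0.15, edgeR adjusted p = 0.0185), and its call was lost without CM PSC4 replicate 1 (edgeR adjusted p = 0.0639). Tapbp, which keeps empty class I molecules at the transporter, measured 632, 566, 668 and 506 CPM in CM and 253, 349, 482 and 305 CPM with neratinib. All Tapbp values with neratinib were below those in CM. Tapbp was 1.71-fold lower (log2 fold change -0.78, SE 0.15, edgeR adjusted p = 0.00352). Whether the counting used strand was not given in the sources used here. Without it, reads from Tapbp and the antisense Gm19412, which shares 20.9% of its 31-base stretches, cannot be told apart. The same holds for Tap1 and Psmb9, which overlap by 212 bases on opposite strands, for Tap2 and Gm15821 (12.1%), and for Psmb8 and Gm20496 (8.1%). Gm16156 spans Psmb10 on the opposite strand, but Psmb10 shared none of its 31-base stretches with other transcripts.

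All 3 immunoproteasome subunits fell, and Psmb8 and Psmb9 had the largest falls of the 10 genes. Psmb8 (LMP7) measured 61.1, 40.0, 48.5 and 51.0 CPM in CM and 3.66, 15.9, 27.4 and 16.7 CPM with neratinib. It was 3.31-fold lower (log2 fold change -1.73, SE 0.37, edgeR adjusted p = 0.00501). Psmb9 (LMP2) was the least abundant of the 10 genes, with 15.5, 9.10, 9.33 and 12.5 CPM in CM and 1.23, 4.79, 5.19 and 3.48 CPM with neratinib. It was 3.16-fold lower (log2 fold change -1.66, SE 0.33, edgeR adjusted p = 0.00398). Psmb10 (MECL-1), the subunit encoded outside the complex on chromosome 8, measured 52.3, 37.7, 42.2 and 44.1 CPM in CM and 15.4, 24.3, 30.3 and 27.9 CPM with neratinib. Psmb10 was 1.82-fold lower (log2 fold change -0.87, SE 0.16, edgeR adjusted p = 0.00213), the smallest adjusted p of the 10. None of these 3 genes overlapped between the groups.

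The subunits they replace did not pass the test. Psmb5, Psmb6 and Psmb7 had log2 fold changes of 0.23, -0.09 and -0.09 with neratinib, and edgeR called 0 of 3, with 1 at an unadjusted p under 0.05. Of the 11 other 20S subunits tested edgeR called 0, with 2 at an unadjusted p under 0.05. The ratio of an immunoproteasome subunit to its constitutive counterpart was taken in each library, a measure added after the single genes were seen. Psmb8 to Psmb5 was 0.751, 0.569, 0.604 and 0.676 in CM and 0.0334, 0.209, 0.348 and 0.174 with neratinib, a 4.51-fold lower geometric mean. Psmb9 to Psmb6 was 3.28-fold lower and Psmb10 to Psmb7 was 1.72-fold lower. For each of the 3 ratios the groups did not overlap, which describes genes already seen to separate and is no separate evidence. TGF-beta libraries also had low ratios, with Psmb8 to Psmb5 at 0.176 to 0.362 against 0.446 to 0.693 in control medium.

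**Figure D2:**
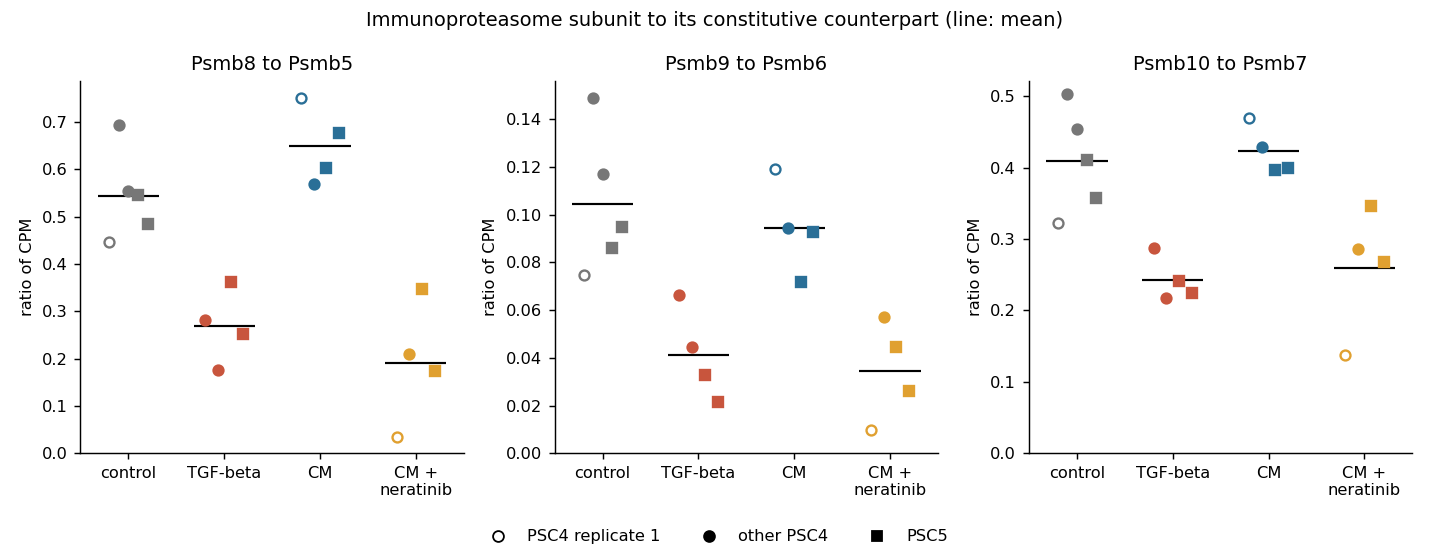
The 3 panels plot the ratio of CPM of Psmb8 to Psmb5, Psmb9 to Psmb6 and Psmb10 to Psmb7 on linear axes, with 1 symbol for each of 17 libraries and a line at the group mean. CM with neratinib lies below CM in every panel, and its lowest library, PSC4 replicate 1, reaches 0.0334 for Psmb8 to Psmb5.

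Nlrc5, the class I transactivator, changed less than most of the genes it is known to act on. It measured 83.6, 78.7, 62.4 and 62.5 CPM in CM and 54.5, 54.7, 46.0 and 38.4 CPM with neratinib, without overlap. It was 1.48-fold lower (log2 fold change -0.57, SE 0.18, edgeR adjusted p = 0.0346). Leaving out 1 library at a time lost this call for 6 of the 8 libraries of the 2 groups, all except CM PSC4 replicate 2 and neratinib PSC5 replicate 1, with adjusted p up to 0.0852.

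The 4 cultures treated with neratinib each have a CM partner of the same line, number and medium code, and all 10 genes were lower with neratinib in all 4 pairs. The median log2 ratio of the 10 genes was -1.82 in PSC4 replicate 1, -0.66 in PSC4 replicate 2, -0.48 in PSC5 replicate 1 and -0.82 in PSC5 replicate 2. Psmb8 ranged most, from 16.7-fold lower in PSC4 replicate 1 to 1.77-fold lower in PSC5 replicate 1. Nlrc5 ranged least, from 1.63-fold to 1.36-fold lower. The sizes of the falls thus depended on the culture, and PSC4 replicate 1, one of the libraries that stood apart, gave the largest ratio for 9 of the 10 genes. Without both libraries of that pair 7 of the 10 genes were still called lower, and without all 3 libraries labelled PSC4 replicate 1 the count was 8. The count of 9 used a spread shared by all 4 groups. The SD of H2-K1 was 171 CPM with neratinib and 185 CPM in CM, against 38.4 CPM in control medium and 52.3 CPM with TGF-beta. With only the 8 libraries of these groups in the model, the log2 fold change of H2-K1 was -1.38 and that of Psmb8 -1.76. In that model 1 gene was called, Nlrc5 (edgeR adjusted p = 0.02), and the cause of the lower count was not tested. Over all genes tested, that model called 602 in either direction, 56% of them higher. The 8 that lost their call had edgeR adjusted p from 0.0505 to 0.111, and B2m was not called in either model.

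**Figure D3:**
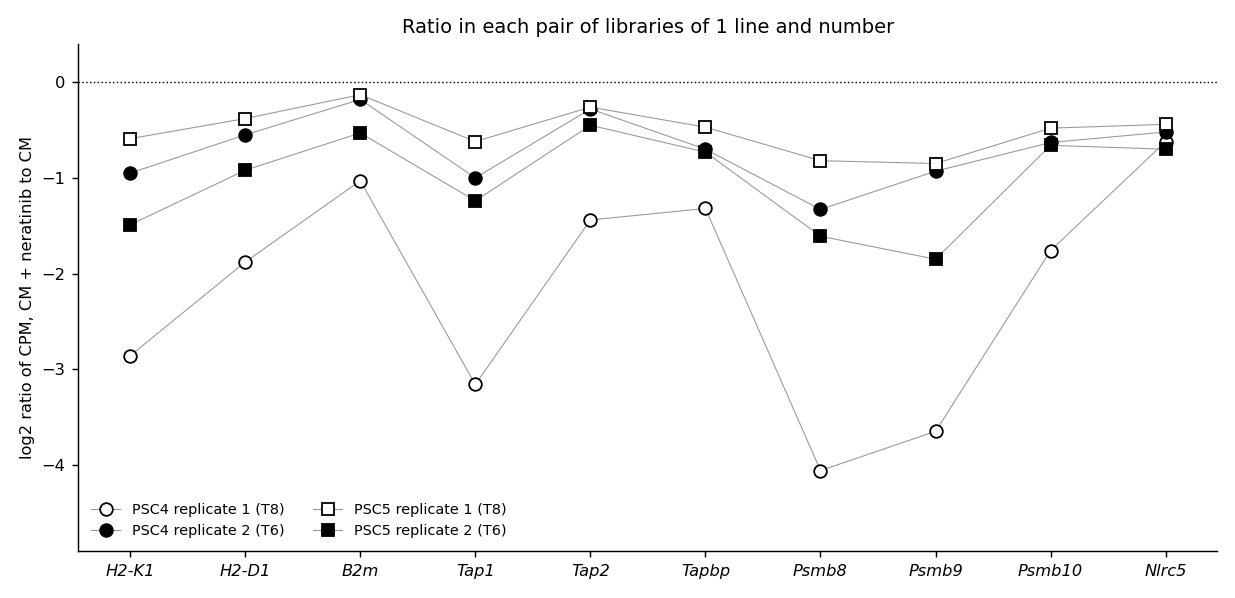
The log2 ratio of CPM in CM with neratinib to CM is plotted for each of the 10 genes, with 1 symbol for each of 4 pairs of libraries and T6 or T8 for the medium code. Every symbol lies below 0, PSC4 replicate 1 lies lowest for 9 genes with -4.06 for Psmb8, and the 4 pairs come together at Nlrc5.

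CM alone was set against control medium, where few of these genes passed the test. Against control medium, 1 of the 10 genes was called higher, where 7.05% of all tested genes were, and all 10 fold changes were above 0. That gene was Tapbp, with 338 to 403 CPM in the 5 control libraries and 506 to 668 CPM in CM (1.61-fold higher, log2 fold change 0.68, SE 0.14, edgeR adjusted p = 0.00668). H2-K1 measured 464, 567, 506, 489 and 517 CPM in control medium, in the order PSC4 replicates 1 to 3 and then PSC5 replicates 1 and 2. All 4 CM libraries were above all 5, yet the spread among them left the log2 fold change of 0.65 (SE 0.27) uncalled (edgeR adjusted p = 0.121). H2-D1 (0.61, SE 0.21, edgeR adjusted p = 0.0681) and B2m (0.41, SE 0.16, edgeR adjusted p = 0.109) also separated without overlap and were not called. The replicate block called both of them, H2-D1 at 0.64 (edgeR adjusted p = 0.0358) and B2m at 0.48 (edgeR adjusted p = 0.0269), which made 3 genes higher, and 5 were called when the other groups were left out of the fit. In all, 5 of the 10 genes were higher in CM without overlap, against 9.37% of all tested genes. Psmb9 stood at 9.42 to 12.6 CPM in control medium and 9.10 to 15.5 CPM in CM, with a log2 fold change of 0.09 (95% interval -0.55 to 0.73).

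With neratinib in CM, part of the pathway was below the level in control medium. Against control, 6 of the 10 genes were called lower, where 20.9% of all tested genes were, and all 10 fold changes were below 0. Psmb9 was 2.96-fold lower (log2 fold change -1.57, SE 0.32, edgeR adjusted p = 0.00151), Psmb8 2.32-fold and Tap1 2.03-fold. Psmb10 was 1.52-fold lower and Tap2 1.37-fold lower. These 5 genes did not overlap with control medium, and 15.3% of all tested genes were lower without overlap. H2-K1 was the sixth, at 1.65-fold lower (log2 fold change -0.72, SE 0.28), with an adjusted p close to the threshold (edgeR adjusted p = 0.0469) and with overlapping groups. It lost its call in 12 of 20 alternative settings, among them the omission of any 1 library of these groups except neratinib PSC5 replicate 1. The edgeR adjusted p over those 20 settings ranged from 0.00297 to 0.148. Tap2 lost its call without control PSC4 replicate 2 (edgeR adjusted p = 0.0513). H2-D1, B2m, Tapbp and Nlrc5 were not called, although H2-D1 was without neratinib PSC5 replicate 1 (-0.54, edgeR adjusted p = 0.0239) and Nlrc5 without control PSC4 replicate 1 (-0.45, edgeR adjusted p = 0.0186). For B2m the means were 1443 CPM with neratinib and 1486 CPM in control medium, a log2 difference of -0.02 (95% interval -0.37 to 0.33). For Tapbp they were 347 and 367 CPM, a difference of -0.09 (95% interval -0.40 to 0.22). Neratinib against CM and against control share the neratinib libraries, so these counts are not independent.

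TGF-beta, which turns stellate cells into contractile matrix-producing cells, also went with lower class I transcripts. Against control medium 6 of the 10 genes were called lower, where 20.5% of all tested genes were. Library values lay below those of control medium without overlap for 6 genes and above them for 1, against 16.3% of all tested genes in either case. H2-K1 measured 257, 182, 309 and 238 CPM with TGF-beta, in the order PSC4 replicates 2 and 3 and then PSC5 replicates 1 and 2. All 4 values were below all 5 controls (2.11-fold lower, log2 fold change -1.08, SE 0.28, edgeR adjusted p = 0.0061). H2-D1 measured 564, 474, 468 and 393 CPM against 651 to 889 CPM (1.59-fold lower, edgeR adjusted p = 0.022). That call was lost without control PSC4 replicate 2, TGF-beta PSC4 replicate 3 or TGF-beta PSC5 replicate 2, with edgeR adjusted p of 0.0525, 0.0549 and 0.0684. Psmb9 fell furthest, from 9.42 to 12.6 CPM in control medium to 3.21 to 6.12 CPM (2.51-fold lower, edgeR adjusted p = 0.00375). Tap2 (1.52-fold), Psmb10 (1.42-fold) and Nlrc5 (1.59-fold) were the other 3 genes called lower, and Psmb10 lost its call without TGF-beta PSC4 replicate 3 (edgeR adjusted p = 0.0515). Psmb8 stood at 12.4 to 27.4 CPM against 29.9 to 39.9 CPM and was not called (log2 fold change -0.79, SE 0.34, edgeR adjusted p = 0.0806). Tap1 was not called either (-0.41, SE 0.29, edgeR adjusted p = 0.28). Without the 3 libraries that stood apart, 1 of them in control medium, 9 of the 10 genes were called lower, B2m, Tap1 and Psmb8 being the 3 added. In that setting 6945 of all tested genes were called in either direction, 48.7% of them higher.

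Nlrc5 with TGF-beta split by line, at 58.0 and 53.2 CPM in PSC4 and 23.5 and 26.2 CPM in PSC5. The control libraries split likewise, with 85.0 and 78.2 CPM in PSC4 replicates 2 and 3, 54.4 and 51.1 CPM in PSC5 and 48.2 CPM in PSC4 replicate 1, which lay with PSC5. In CM and with neratinib PSC4 replicate 1 (83.6 and 54.5 CPM) instead lay with PSC4 replicate 2 (78.7 and 54.7 CPM), above PSC5. The difference between PSC5 and PSC4 in the TGF-beta effect on Nlrc5 was -0.74 (SE 0.27, edgeR adjusted p = 1). B2m (log2 fold change -0.41, SE 0.17) was not called with TGF-beta (edgeR adjusted p = 0.0598) but was with the replicate block (-0.47, edgeR adjusted p = 0.0131) and without control PSC4 replicate 1 (-0.47, edgeR adjusted p = 0.04).

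Tapbp, the bridge to the transporter, went the other way. It measured 506, 453, 466 and 427 CPM with TGF-beta, all above the 338 to 403 CPM of control medium, with a log2 fold change of 0.33 (SE 0.14, edgeR adjusted p = 0.0804), and 0.31 with the replicate block, which called it higher (edgeR adjusted p = 0.0424), where 19.7% of all tested genes were called higher without the block. The difference between the effect of neratinib in CM and the effect of TGF-beta was tested as a contrast in the same model, added after the separate comparisons were seen. Tapbp was the 1 gene of the 10 that differed (log2 difference -1.11, SE 0.21, edgeR adjusted p = 0.00143), where 13.5% of all tested genes differed in this direction. The other 9 genes had differences from -0.94 (Psmb8, SE 0.49, edgeR adjusted p = 0.173) to 0.10 (Nlrc5, SE 0.24, edgeR adjusted p = 0.81).

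**Figure D4:**
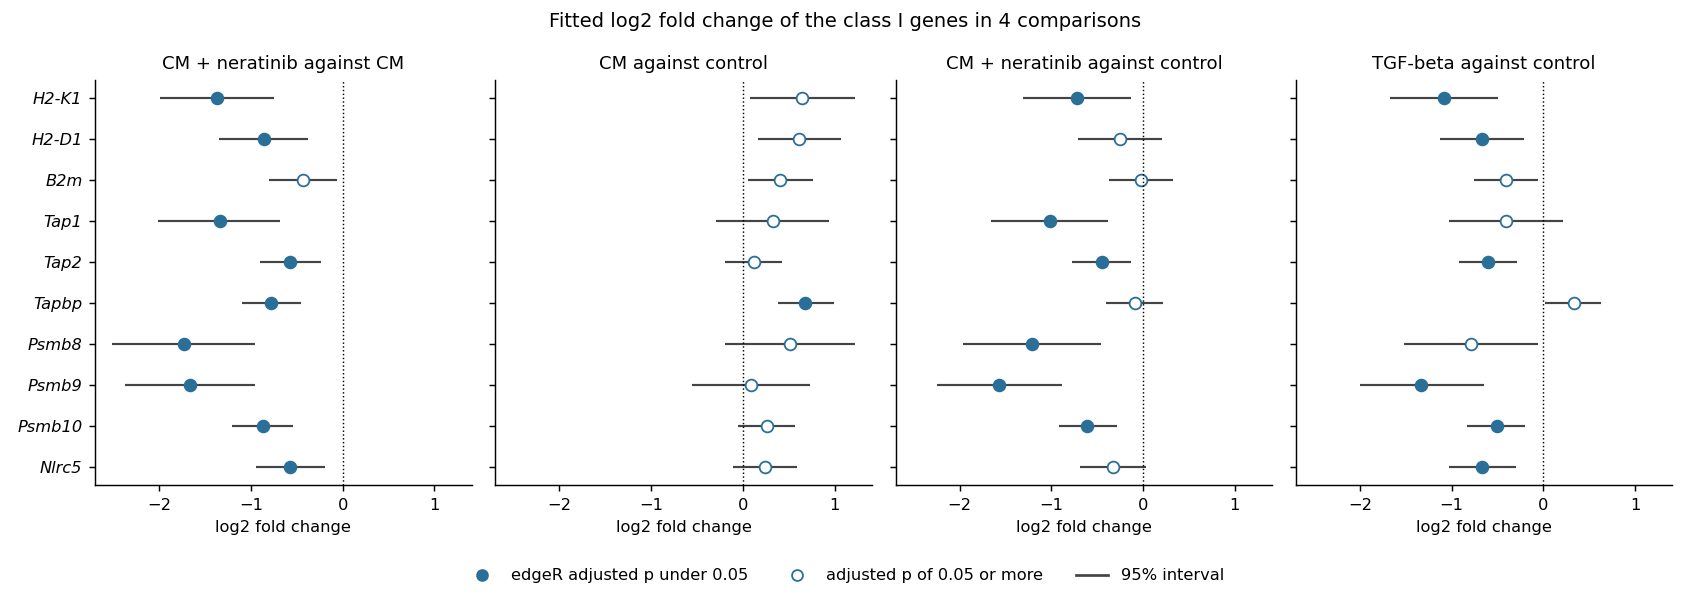
Fitted log2 fold changes of the 10 genes are plotted for 4 comparisons, with 95% intervals as lines and filled symbols for an edgeR adjusted p under 0.05. All 10 genes lie below 0 for neratinib against CM and 9 were called; Tapbp lies above 0 for CM and for TGF-beta against control.

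CM and TGF-beta were also compared directly. In the direct comparison 8 of the 10 genes had a call in the direction of CM, where 17.8% of all tested genes were. Library values did not overlap for 9 of the 10, Tapbp being the exception, and 15.6% of all tested genes were higher without overlap. H2-K1 was 3.31-fold higher (log2 fold change 1.73, SE 0.29, edgeR adjusted p = 0.000329), Psmb9 2.67-fold, Psmb8 2.47-fold and H2-D1 2.44-fold. B2m was 1.77-fold higher (edgeR adjusted p = 0.00188), Nlrc5 1.87-fold, Psmb10 1.71-fold and Tap2 1.66-fold. Tap1 (0.74, SE 0.31, edgeR adjusted p = 0.0729) and Tapbp (0.36, SE 0.15, edgeR adjusted p = 0.081) were not called, but the replicate block called Tapbp (0.37, edgeR adjusted p = 0.0337), as did the omission of CM PSC5 replicate 2 (0.44, edgeR adjusted p = 0.0468). Tap1 was called without TGF-beta PSC4 replicate 2 (0.96, edgeR adjusted p = 0.0386) and without the 3 libraries that stood apart (0.64, edgeR adjusted p = 0.0178). The summed heavy chains were 2746 CPM in CM, 1751 CPM in control medium, 1279 CPM with neratinib and 1013 CPM with TGF-beta.

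Levels can be compared between genes per kilobase of that transcript. On that scale in control medium B2m came first, at 1728 ± 226 CPM per kb (SD, n = 5). H2-D1 at 361 ± 47 and H2-K1 at 314 ± 23.7 followed, and their ranges of mean ± SD met. Within every control library H2-D1 was above H2-K1, at 310, 423, 397, 338 and 338 against 286, 350, 312, 302 and 319 CPM per kb. This order was not tested. Tapbp stood at 127 ± 10.8 CPM per kb. Psmb10 (27.8 ± 2.60), Tap1 (25.2 ± 2.70) and Psmb8 (21 ± 2.35) lay close together, and their ranges of mean ± SD met between neighbours in the order. Tap2 (11 ± 0.539), Nlrc5 (8.36 ± 2.24) and Psmb9 (8.06 ± 0.917) were lowest, and the ranges of mean ± SD of the last 2 met. Light chain transcripts were thus far more abundant per length than heavy chain transcripts in control medium.

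Differences in the effects between lines and between medium codes were tested next. The difference between PSC5 and PSC4 in the neratinib effect was 0.89 for H2-K1 (SE 0.57, edgeR adjusted p = 1) and 0.01 for Nlrc5 (SE 0.28, edgeR adjusted p = 1). By edgeR 0 of 13923 genes were called for this difference, and 0 of the 10 members had an unadjusted p under 0.05. Within PSC4 the neratinib effect on H2-K1 was -1.83 (SE 0.41, edgeR adjusted p = 0.0233), and within PSC5 it was -0.93 (SE 0.40, edgeR adjusted p = 0.354). When the 3 libraries labelled PSC4 replicate 1 were counted with PSC5, all 10 line differences changed sign, from a range of 0.01 to 1.19 to one of -0.99 to -0.06. Nlrc5 was the 1 gene of the 10 that differed between lines over all media, lower in PSC5 (log2 difference -0.57, SE 0.12, edgeR adjusted p = 0.0257), where 4.78% of all tested genes were lower. The organoid media carried the code T8 in number 1 and T6 in number 2, so within these media code and passage cannot be told apart. T6 was set against T8 in a fit of all 17 libraries with line and number as a block. The number effect was thus taken from the control and TGF-beta libraries. T6 minus T8 was -0.43 for H2-K1 (SE 0.41, edgeR adjusted p = 0.888) and -0.53 for Nlrc5 (SE 0.20, edgeR adjusted p = 0.703). For this term 0 of 13923 genes were called by edgeR, with 1 of the 10 members at an unadjusted p under 0.05. Without the block the values were -0.35 for H2-K1 (edgeR adjusted p = 0.598) and -0.09 for Nlrc5 (edgeR adjusted p = 0.86). The neratinib effect itself differed between T6 and T8 by -0.09 (Nlrc5) to 0.58 (Psmb9), with an edgeR adjusted p of 1 for each of the 10 genes, and 0 of them had an unadjusted p under 0.05. Without the 3 libraries labelled PSC4 replicate 1, 9 of these 10 differences changed sign and the range was -0.65 to -0.11.

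The rest of the class I machinery was read from lists chosen with these results in view. Their counts stand against 9.63% of all tested genes called lower with neratinib, and 20.5% called lower and 19.7% called higher with TGF-beta. Of 18 other class I and class I-like heavy chain genes 13 were tested, and neratinib lowered 10 of them (median log2 fold change -1.19, against 0.001 over all tested genes). The largest falls were those of H2-T24, H2-Q6 (-2.58, SE 0.42) and H2-Q7 (-2.05, SE 0.37). H2-Q6 and H2-Q7 held 7.6% and 7.3% of the 31-base stretches of H2-K1, so their estimates are not fully separate from that of H2-K1. H2-T24 had 1.10 ± 0.230 CPM in CM and at most 2 counts in a neratinib library, so its fitted value of -4.93 depends on the prior count. Without the 3 libraries labelled PSC4 replicate 1 the count was 8 of 13. With TGF-beta 9 of the 13 were lower, led by H2-Q6 (-2.60, SE 0.42), H2-Q7 (-1.85, SE 0.36) and H2-Q10 (-1.47, SE 0.34). Of 14 other genes of peptide loading and trimming, neratinib lowered 6, the largest falls being those of the proteasome activator subunits Psme1 (-0.57, SE 0.13) and Psme2 (-0.43, SE 0.11) and of the loading chaperone Calr (-0.41, SE 0.08), and the count was 4 without those 3 libraries. The list median was -0.06. TGF-beta lowered 2 of these 14 and raised 4, led by Sec61a1 (0.61, SE 0.06), a channel of the endoplasmic reticulum. Under library totals alone these counts were 3 and 2, and neither stands apart from the shares over all tested genes.

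Among 16 factors that act at class I promoters, neratinib lowered 6 and raised 0. Stat2 (-1.21, SE 0.26) and Irf9 (-0.85, SE 0.15), which act in the response to type I interferon, were among the 6. TGF-beta lowered 4 of the 16, led by Irf2 (-0.69, SE 0.09), Rfx5 (-0.53, SE 0.08) and Irf1 (-0.52, SE 0.15), a count near the 20.5% of all tested genes. CM raised 3 of the 16 against control, where 7.05% of all tested genes were higher: Nfkb1 (0.57, SE 0.10), Stat3 (0.53, SE 0.13) and Rela (0.31, SE 0.08). Of 30 interferon-stimulated genes outside the pathway, neratinib lowered 29 (median -2.18), and TGF-beta lowered 0 by edgeR, with 2 at an unadjusted p under 0.05, and raised 1 (median -0.02 beside -0.02 over all tested genes). With TGF-beta 1 was lower and 0 higher under library totals alone, and 2 were lower and 0 higher without the libraries that stood apart. Without those libraries neratinib lowered 28 of the 30. Side by side, neratinib and TGF-beta lowered 10 and 9 of the 13 heavy chain genes, and 29 and 0 of the 30 interferon-stimulated genes. The difference between these counts was not tested.

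**Figure D5:**
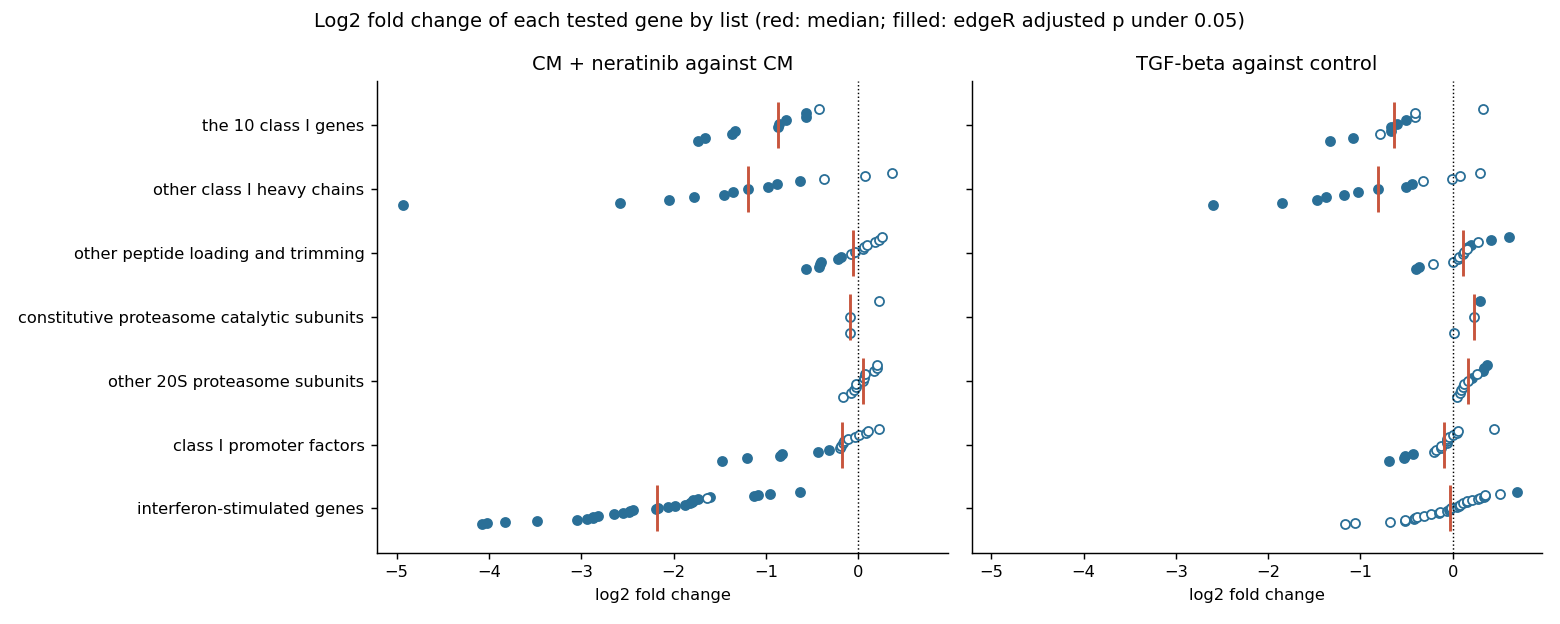
Each symbol is the log2 fold change of 1 tested gene, grouped in rows by list, for neratinib against CM (left) and TGF-beta against control (right); filled symbols have an edgeR adjusted p under 0.05 and red lines are medians. The interferon-stimulated genes have a median of -2.18 on the left and -0.02 on the right, while the class I genes lie mostly below 0 on both sides.

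Interferon transcripts themselves were scarce. None of the 8 ligand genes looked at passed the filter, and Ifna2, Ifng, Ifnl2 and Ifnl3 had 0 counts in all 17 libraries. The summed level of the 8 was 0.570 to 0.956 CPM in CM and 0.0458 to 0.233 CPM with neratinib, and 0.108 to 0.286 CPM in control medium. Ifnb1, named after its values were seen, had at most 11 counts in a CM library and 0 in each neratinib library. These values rest on few counts and were not tested. Of 11 interferon receptors, kinases and brakes, neratinib lowered 3, led by the deconjugase and brake Usp18 (-2.25, SE 0.33), and CM raised 7 against control, led by Jak2 (0.93, SE 0.27). Over all tested genes 9.63% and 7.05% were called in these directions.

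The genes whose pattern over the 17 libraries was most like the 10 members were found by Pearson's r of log2 CPM with the mean standardised member, among 10843 other genes with a mean of at least 5 CPM. They were Ifi211 (r = 0.968), Ifi203 (0.963), Mndal (0.962), H2-Q7 (0.961) and H2-Q4 (0.956). The first 3 belong to the interferon-inducible p200 family. H2-Q7 and H2-Q4 held 7.3% and 10.1% of the 31-base stretches of H2-K1, so their estimates are not fully separate from that member. The libraries share lines and groups, so r describes these libraries only. Ifi203 measured 161.5 CPM on average in CM and 59.8 CPM with neratinib, and 110.1 and 44.3 CPM in control medium and with TGF-beta.

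Markers of other cell types moved with some of these groups. Of 13 tested epithelial markers 9 were called higher in CM than in control, where 7.05% of all tested genes were. The summed level of the 14 markers was 20.4 to 183 CPM in CM, 9.83 to 329 CPM with neratinib, 15.9 to 23.6 CPM in control medium and 14.9 to 20.8 CPM with TGF-beta. Between neratinib and CM edgeR called 0 of the 13, with 0 at an unadjusted p under 0.05. In the order used above, the epithelial sums were 20.4, 183, 43.1 and 154 CPM in CM and 9.83, 148, 52.4 and 329 CPM with neratinib. The sums thus went with the medium code: every T6 library (replicate 2) was above every T8 library (replicate 1). In PSC4 replicate 1 the sum in CM was within the control range and the sum with neratinib below it. Macrophage and dendritic markers summed to 27.1 to 53.3 CPM in CM, 35.9 to 68.2 CPM with neratinib, 14.4 to 17.9 CPM in control medium and 8.43 to 15.4 CPM with TGF-beta. Of the 5 tested, 1 was higher in CM than in control, Cd14 (1.55, SE 0.21). With TGF-beta Itgax and Fcer1g (2.70, SE 0.50) were higher and Cd14 was lower (-1.45, SE 0.23), and Itgax reached 0.473 to 7.30 CPM from at most 1 count in a control library. Adgre1 and Tyrobp were at 0 in all 17 libraries. Of the lymphocyte markers Cd3e, Cd8a, Cd4 and Ncr1 were at 0 in all libraries, and the 8 together reached at most 0.467 CPM. Endothelial markers summed to at most 8.81 CPM in any library, with Cldn5 at 0. Summed stellate and fibroblast markers were 5742 to 6837 CPM in CM and 4174 to 6859 CPM with neratinib. The part of other cell types in the CM comparisons was not tested.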

How the data were processed

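RNA was measured in 17 libraries (5 control, 4 TGF-beta, 4 CM, 4 CM with neratinib). The authors deposited expected counts per gene for each library, which need not be whole. The submitters' processing notes name Salmon 1.4.0, DESeq 2 and the builds GRCm38 and mm10, with no role or order. The annotation release, read filters and strand setting were not given in the sources used here. Groups came from the labels. Of 35896 gene IDs, 35437 matched a symbol.

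Counts were rounded (74.8% of values above 0 were not whole), filtered with filterByExpr (minimum count 10, minimum total 15), scaled by TMM and fitted with edgeR 4.0.16 in R 4.3.3. The quasi-likelihood model had group and cell line over all 17 libraries. P-values were adjusted by Benjamini-Hochberg over 13923 genes, with a threshold of 0.05. Same-numbered libraries of a line deviated together: all 22 pairs had a correlation above 0.1 (lowest 0.12, median 0.299), as tested on deviations from group means, so number and line served as a block in an alternative. Of the pairs of 1 line with different numbers, 14 of 32 were above 0.1 (median -0.0756). Between lines it was 14 of 54 (median -0.183). Other alternatives were scalings, no filter, DESeq2 1.42.0, no line term, only 2 groups, a stricter threshold and left-out libraries. On simulated counts for CM with neratinib against CM (13736 genes), 48.5% of 1.5-fold and 70% of 2-fold changes were recovered, and 6 unchanged genes were called. The simulation gave each gene the same spread in all groups and no shared deviation of same-numbered libraries. The data differ in both, so these rates need not hold for them. No 2 libraries of a group agreed within sampling noise.

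The 10 genes and the lists were chosen with earlier results of these data known. All 10 genes are described. From each other list the text names at most the 3 largest rises and 3 largest falls among called genes, and defining markers at 0; 1 gene is not reported here. The 5 most similar genes were taken by Pearson's r. Positions are from GENCODE M21 and promoter sequences from RefSeq.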

Additional observations from a re-analysis of the deposited data

Results flagged for a closer look

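Tap2 in CM with neratinib, PSC4 replicate 1, stood at 17.5 CPM, far below the other 3 libraries of its group. The gap to the nearest of them was 0.943 of the group's whole range. It was the only such library among 40 sets of 1 gene in 1 group, and chance marks about 1 in 20 sets. Tapbp differed between treatments: the effect of neratinib in CM minus the effect of TGF-beta was -1.11 on the log2 scale (SE 0.21, edgeR adjusted p = 0.00143). This contrast was added after the separate comparisons were seen, and 13.5% of all tested genes were called in this direction.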

How the results depend on the processing

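For neratinib against CM the count of 9 genes called lower was 10 with the replicate block, 8 without a cell line term, 6 at an adjusted p under 0.01 and 1 with only the 2 groups compared, and it lay between 6 (without CM PSC4 replicate 1) and 10 when 1 library was left out. Calls over all tested genes, in either direction, also moved. They were 4563 with the block (51.3% higher), 2224 without a line term (53.9%) and 602 with only the 2 groups (56%). Direction held for all 10 genes in every setting run for that comparison. For neratinib against control the count of 6 became 2 at an adjusted p under 0.01, and leaving out 1 library gave 4 (without control PSC4 replicate 2) to 7. For TGF-beta against control it gave 4 (without TGF-beta PSC4 replicate 3) to 7, and 1 gene became higher with the replicate block, with only the 2 groups compared and with DESeq2. For CM against control the 1 gene called higher became 3 with the replicate block, 3 with the PSC4 replicate 1 libraries counted with PSC5, 5 with only the 2 groups compared and 2 with DESeq2. Over all tested genes the block called 3240 in either direction, the count with PSC5 2986 and the fit of only 2 groups 2764. Leaving out 1 library gave 1 in each case, and 8 to 9 for CM against TGF-beta.

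Changes of sign were confined, among the settings run, to values near 0 or to differences between effects that were not called. Neratinib against control gave 0.01 for B2m with the replicate block, 0.00 with those libraries taken as PSC5 and 0.08 when they were removed; leaving out 1 library gave -0.20 to 0.14. Tapbp gave 0.01 with them removed and -0.28 to 0.04 when 1 library was left out. CM against control gave -0.11 for Psmb9 with them removed and -0.10 to 0.21 when 1 library was left out. PSC5 minus PSC4 was -0.02 for Tap2 with them removed, where 1 gene (Psmb10) was called higher. With them counted as PSC5, the line difference in the neratinib effect was -0.51 for H2-K1 and -0.06 for Nlrc5. The line difference in the CM effect was then 0.55 for H2-K1, and 8 of the 10 genes changed sign. The medium code difference in the neratinib effect was -0.62 for H2-K1 with them removed, and 9 of the 10 genes changed sign. Neratinib effect minus TGF-beta effect then gave 0.15 for H2-K1, 0.15 for H2-D1, 0.21 for B2m and 0.17 for Psmb9, and 0.00 for B2m with the replicate block. The cause was not tested. Library totals alone moved the median of all genes to -0.111 for neratinib against control and -0.153 for TGF-beta against control. The share of called genes that were higher was then 32.2% and 28.7%, 38% for neratinib against CM, 33.5% for CM against control and 63.4% for CM against TGF-beta. With upper-quartile factors it was 41.1% for neratinib against control, 41.3% for TGF-beta against control and 37.5% for CM against control. Beyond the calls named beside results, the replicate block changed no other call of a member in the 5 comparisons of groups.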

Other observations

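Among genes of class II presentation and T cell ligands, few were called, where 7.05% of all tested genes were higher in CM than in control and 9.63% lower with neratinib than in CM. Cd74, the class II invariant chain, was 1 of 3 tested genes among 11 of the class II pathway, and it was higher in CM than in control (log2 fold change 2.81, edgeR adjusted p = 0.00702) and lower with neratinib than in CM (-2.05, edgeR adjusted p = 0.0316). Cd274, which encodes the T cell inhibitory ligand PD-L1, was the 1 called gene of 7 tested ligands in the same comparisons, at 0.72 for CM against control (edgeR adjusted p = 0.0121) and -0.78 for neratinib against CM (edgeR adjusted p = 0.0075). The other 6 ligands were called in neither comparison. Of the 30 interferon-stimulated genes CM raised 7, led by Cxcl10 (1.58), Rsad2 (1.52) and Zbp1 (1.46). With neratinib the largest falls were those of Cxcl9 (-4.08), Ifit3b (-4.02) and Mx1 (-3.83).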
